A study of Mus musculus with 54 samples.

Results

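Neat1 and Malat1 are neighbouring genes on mouse chromosome 19 that produce abundant noncoding RNAs retained in the nucleus. Their peaks were taken as every ChIP-seq peak whose summit, the base of highest signal, lay inside either gene or within 2000 bp of it. This rule found 13 of the 25012 peaks in 42 lists. Of these, 11 lay at Neat1, in the lists of 9 KZFPs, and 2 lay at Malat1, in 2 lists that also had a peak at Neat1. The peaks were thus chosen by their called position, and a peak is called only where a library exceeded its input. The counts, widths and enrichments below are therefore descriptions and carry no test.

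The study profiled KRAB-zinc finger proteins (KZFPs), DNA-binding proteins that mostly repress transposable elements, and each list came from 1 KZFP. Every library was made from F9 cells, a mouse embryonal carcinoma line, carrying 1 codon-optimised KZFP with a C-terminal HA tag. The KZFP was over-expressed from a Sleeping Beauty transposon vector and the cells were selected with puromycin. Chromatin was recovered with the tag, and each list rests on 1 library with no replicate, compared with the mixed input of its batch. The 42 lists fall into 5 batches, and 4 empty vector controls, F9 cells that received the vector with no KZFP, belong to batches 1, 2 and 4. The authors discarded peaks with any overlap to a peak called in a control, so none of the 13 peaks overlapped one. The controls themselves and the inputs were not analysed here. Binding by a tagged protein made in excess need not match binding at its natural level, and the amount of Neat1 and Malat1 RNA in these cells was not measured. The peak files do not hold the sequencing depth.

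Neat1 RNA is the scaffold of paraspeckles, nuclear bodies built by its long isoform together with RNA-binding proteins such as SFPQ, NONO and PSPC1. A short isoform starts at the same place and ends early. Malat1 RNA gathers in nuclear speckles, where splicing factors are stored. Both genes are strongly transcribed in many cell types, and neither is a transposable element.

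In GENCODE vM39 on GRCm39, Neat1 (ENSMUSG00000092274.6) occupies chr19:5874736-5897132 on the minus strand, 22397 bp with 24 annotated transcripts. Malat1 (ENSMUSG00000092341.7) occupies chr19:5845717-5853602 on the same strand, 7886 bp with 23 transcripts. The annotated 5′ ends are not where most transcripts begin. At Neat1, 5 of the 24 transcripts start within chr19:5895506-5895508, 1624 bp inside the annotated end. No other group of starts held more, but most Neat1 transcripts start elsewhere. At Malat1, 16 of the 23 transcripts start within chr19:5852696-5852706, 896 bp inside the annotated end. These positions are called the start clusters below, and distances along a gene are counted from its annotated 5′ end in the direction of transcription.

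The stretches of Neat1 where summits of several KZFPs met, and a summit and an upstream edge of the Malat1 peaks, are shown first, since the positions below refer to them. All are GRCm39, minus strand, 5′ to 3′. The first is chr19:5894331-5894530, and its capitals mark the summit bases of Zfp_MB023, Rex2 and Zfp600. The second is chr19:5895069-5895269, with capitals at the summits of Zfp_MB025, Zfp_MB011 and Zfp980 in that order.
Neat1, summits of Zfp_MB023, Rex2 and Zfp600: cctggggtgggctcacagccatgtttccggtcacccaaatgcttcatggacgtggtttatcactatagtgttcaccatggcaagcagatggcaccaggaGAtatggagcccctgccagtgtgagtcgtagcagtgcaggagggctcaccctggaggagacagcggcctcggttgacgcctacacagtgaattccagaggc
Neat1, summits of Zfp_MB025, Zfp_MB011 and Zfp980: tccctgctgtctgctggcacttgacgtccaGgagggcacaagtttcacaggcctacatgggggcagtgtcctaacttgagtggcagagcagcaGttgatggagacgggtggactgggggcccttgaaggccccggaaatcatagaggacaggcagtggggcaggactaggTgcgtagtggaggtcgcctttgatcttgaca

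The third stretch, chr19:5850690-5850889, surrounds the Malat1 summit of Zfp_MB026, and its capitals mark the motif TGGCAA discussed below. The fourth is the RefSeq promoter of Malat1, taken from a GRCm38.p6 table and matched base for base to 1 place on chromosome 19 of GRCm39, chr19:5852651-5852950. Its capitals mark the 119 bases covered by the Malat1 peak of Zfp_MB025, whose edge lay 69 bp upstream of the RefSeq start. The table had no entry for Neat1.
Malat1, summit of Zfp_MB026: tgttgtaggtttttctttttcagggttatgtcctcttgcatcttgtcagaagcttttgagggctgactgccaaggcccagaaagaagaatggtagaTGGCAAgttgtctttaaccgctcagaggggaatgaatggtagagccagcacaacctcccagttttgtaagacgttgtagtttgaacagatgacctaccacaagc
Malat1, promoter with the edge of the Zfp_MB025 peak: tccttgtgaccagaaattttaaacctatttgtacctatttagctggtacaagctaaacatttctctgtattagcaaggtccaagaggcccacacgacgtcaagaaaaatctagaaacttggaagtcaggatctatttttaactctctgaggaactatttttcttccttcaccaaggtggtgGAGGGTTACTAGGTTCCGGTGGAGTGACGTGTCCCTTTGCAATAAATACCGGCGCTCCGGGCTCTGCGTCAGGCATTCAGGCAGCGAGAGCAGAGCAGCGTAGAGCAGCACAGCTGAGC

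Neat1 was among the genes reached by the most KZFPs. Summits of 9 of the 42 lists lay inside the gene, and no Neat1 summit lay outside it. Over all 78252 annotated genes, 19.1% had a summit inside or within 2000 bp in at least 1 list, 5.88% in at least 2 lists and 0.0434%, 34 genes, in at least 9. Among the 32884 long noncoding RNA genes the share with at least 2 lists was 4.97% and that with at least 9 was 0.0365%, and among the 16566 genes from 0.5 to 2 times as long as Neat1 it was 0.0543%. Joined wherever they overlapped, the peaks of all lists made 21113 regions. The Neat1 peaks made 1 region of 7938 bp with 9 lists, and 0.0568% of the regions, 12 in number, held at least 9. Malat1, with 2 lists, was more ordinary. Of the 17833 genes from 0.5 to 2 times its length, 3.75% had at least 2 lists.

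The 9 KZFPs with a peak at Neat1 were Rex2, Zfp600, Zfp980, Zfp_MB011, Zfp_MB016, Zfp_MB023, Zfp_MB025, Zfp_MB026 and Zfp_MB035. No pair of them shares a fingerprint array, the residues of the zinc fingers that touch DNA, in the study's assignment. KZFPs that do share an array with one of the 9 had no peak at either gene. These were Zfp_MB003, with the array of Zfp_MB011, and Zfp600_1 and Zfp600_3, with that of Zfp_MB035. Their lists hold 360, 103 and 75 peaks. A peak that is missing from a list may have been called and then removed at the thresholds or for an overlap with a control peak, so its absence does not show that the locus was at background.

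Peaks at Neat1 came mostly from 1 batch. In batch 4, 7 of 20 lists had one, against 1 of 13 in batch 3, 1 of 3 in batch 5 and none of the 3 lists in each of batches 1 and 2. Both lists with a Malat1 peak were also from batch 4. Each KZFP was profiled in 1 batch, so batch and KZFP cannot be told apart. Batches 1, 2 and 4, which had an empty vector control of their own, held 26 of the lists and 7 of those with a Neat1 peak. The lists had been filtered at a fold enrichment of 5 or 10, and 3 of the 10 lists filtered at 5 and 6 of the 32 filtered at 10 had a Neat1 peak. Of the 6 lists with over 1000 peaks 2 had a Neat1 peak, a higher share than the 2 of the 16 lists with fewer than 100. The other lists with a Neat1 peak lay between these lengths, and a relation to list length was not tested.

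The Neat1 peaks gathered in the 5′ part of the gene. Counted from the annotated 5′ end, 10 of the 11 summits lay between 1893 bp and 4599 bp, and the summit of Zfp_MB026 lay at 8442 bp. No part of the gene beyond the edge of the longest peak, at chr19:5887877, was covered by any list. The peaks of the 8 lists other than that of Zfp_MB026 shared a stretch of 1124 bp, chr19:5893358-5894481, which held 5 summits of 5 lists. All 8 also covered 229 bp at chr19:5892794-5893022, which held no summit. The stretches are separated by a gap between 2 peaks in the lists of Zfp600 and Zfp980.

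**Figure D1:**
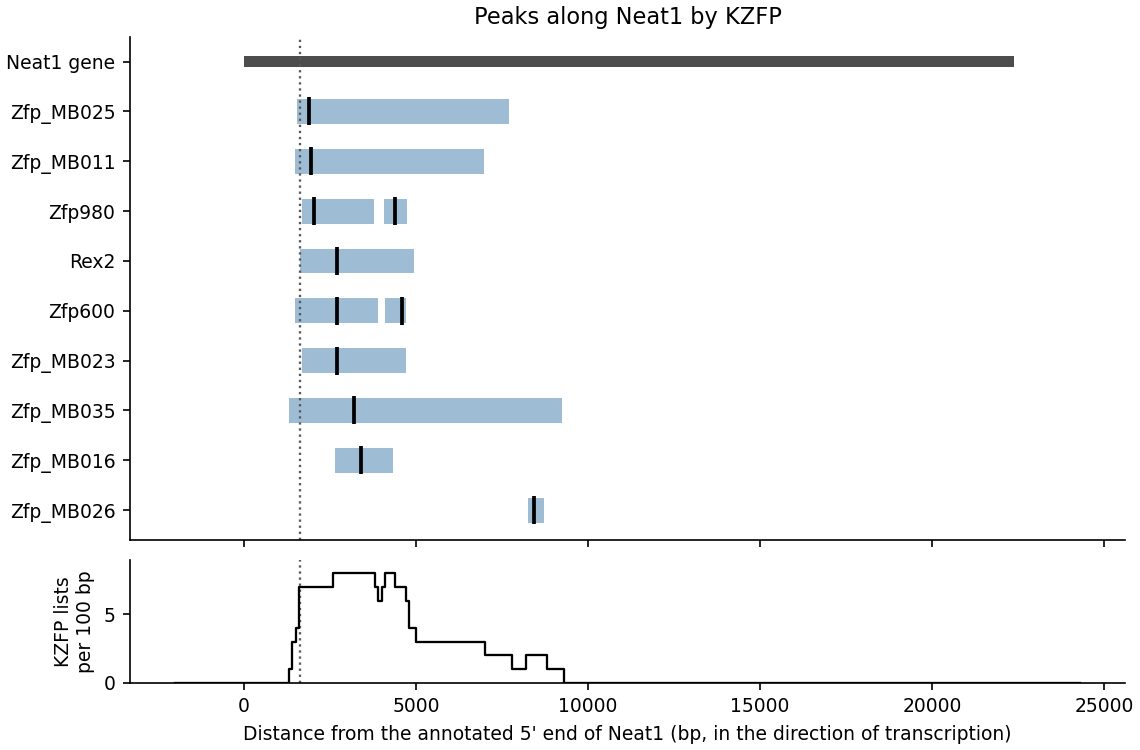
Peaks of 9 KZFPs along Neat1 (x axis, bp from the annotated 5′ end in the direction of transcription; y axis, KZFP), with bars for the peaks, black ticks for the summits, the annotated gene in dark grey and a dotted line at the cluster of transcript starts, 1624 bp from the annotated end. The lower panel counts the lists with a peak in each 100 bp, which reached 8 of the 9 and was 0 beyond the edge of the Zfp_MB035 peak.

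Several KZFPs had their highest signal at nearly the same base of Neat1. The summits of Zfp_MB023, Rex2 and Zfp600 lay at positions 5894430, 5894431 and 5894431, within 1 bp of each other. Those of Zfp980, Zfp_MB011 and Zfp_MB025 lay at 5895099, 5895176 and 5895239, within 140 bp. The other summits stood alone, with Zfp_MB035 at 5893925, Zfp_MB016 at 5893718 and the weaker second peaks of Zfp980 and Zfp600 at 5892736 and 5892533. All 11 Neat1 summits fell in an exon of at least 1 and at most 8 annotated transcripts. The full-length transcript has 1 exon, so every position inside the gene is exonic in it.

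Most Neat1 peaks ended close to the start cluster on the upstream side. In 7 lists, those other than Zfp_MB026 and Zfp_MB016, the upstream edges fell within 367 bp of each other, from position 5895447 to 5895814. With Zfp_MB016, whose peak ended at 5894481, the range was 1333 bp. The downstream edges of the 7 lists spread over 4556 bp, through the 3 longest peaks, those of Zfp_MB011, Zfp_MB025 and Zfp_MB035. In the other 4 lists, Rex2, Zfp600, Zfp980 and Zfp_MB023, the downstream edges lay within 239 bp of each other and the upstream edges within 194 bp. Measured from the last base of the start cluster, the upstream edges lay from 61 bp short of it (Zfp_MB023) to 306 bp past it (Zfp_MB035). Of the 7 peaks, 5 held a transcript start of this cluster, and starts of other Neat1 transcripts were not checked. The 4 peaks of Zfp600, Zfp_MB011, Zfp_MB025 and Zfp_MB035 also reached 40 to 254 bp into Frmd8os, a long noncoding RNA gene on the opposite strand that begins at chr19:5895561. None of their summits lay in it. ChIP-seq has no strand, so signal of overlapping genes cannot be told apart.

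The longest peak at Neat1 was that of Zfp_MB035, chr19:5887877-5895814. It was 7938 bp wide and covered 35.4% of the gene. That of Zfp_MB025 was 6182 bp wide and covered 27.6%, and that of Zfp_MB011 was 5486 bp wide and covered 24.5%. Rex2 had 1 peak of 3324 bp and Zfp_MB023 1 peak of 3024 bp. The signal of Zfp600 and Zfp980 was called as 2 peaks each. Those of Zfp600 were 2393 bp and 590 bp wide with a gap of 226 bp, and those of Zfp980 were 2091 bp and 659 bp wide with a gap of 306 bp. The peak of Zfp_MB016 was 1688 bp wide. Zfp_MB026 stood apart with a peak of 480 bp, chr19:5888411-5888890, that overlapped that of Zfp_MB035 alone.

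Fold enrichment is the ratio of library to input at the summit. Batches have different inputs, so folds of different batches are given side by side and are not ranked against each other. In batch 4 the fold was 16.9 for Zfp_MB025, 13.4 for Zfp_MB016, 12.0 for Zfp_MB023, 10.8 for Zfp_MB026 and 10.1 for Rex2. For the wider and the narrower peak it was 10.6 and 5.94 for Zfp600 and 8.20 and 6.39 for Zfp980. It was 8.76 for Zfp_MB011 in batch 3 and 15.0 for Zfp_MB035 in batch 5. The −log10 q, which MACS2 gives for each summit, was 80.8 for Zfp_MB035 and 6.37 for the narrower Zfp600 peak.

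Within their own lists these peaks were set apart by width more than by enrichment. The Neat1 peak was the widest of all 51 peaks of Zfp600, of the 296 of Zfp_MB011 and of the 300 of Zfp_MB023. It was the second widest for Rex2, the third for Zfp980 and Zfp_MB035 and the fourth for Zfp_MB025. Over both genes, 8 of the 13 peaks were among the 5 widest of their list, in 7 lists, and 8 were at least 2000 bp wide. Of all 25012 peaks 1.39% were as wide, and of the 11693 peaks in the 9 lists 0.701% were. That pool was mostly Zfp_MB016, with 6183 peaks, and Zfp_MB026, with 4106, which held none of the 8. In the 7 lists that held them, wide peaks were not equally rare. The 95th percentile of width was 6249 bp for Zfp_MB025 and 2220 bp for Zfp_MB035. In the rest it ran from 484.5 bp for Zfp_MB023 to 1726 bp for Zfp_MB011. The widths were 0.964 to 14.8 times the median width of the list, and the lowest ratio belonged to the Zfp_MB026 peak. Counted over genes, 0.233% of all annotated genes had 1 of the 5 widest peaks of at least 1 list, and 0.00639%, 5 genes, had one of at least 7 lists. These were Neat1, Frmd8os and the small RNA annotations Gm55523, Gm55524 and Gm55525, all reached by the Neat1 peaks.

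**Figure D2:**
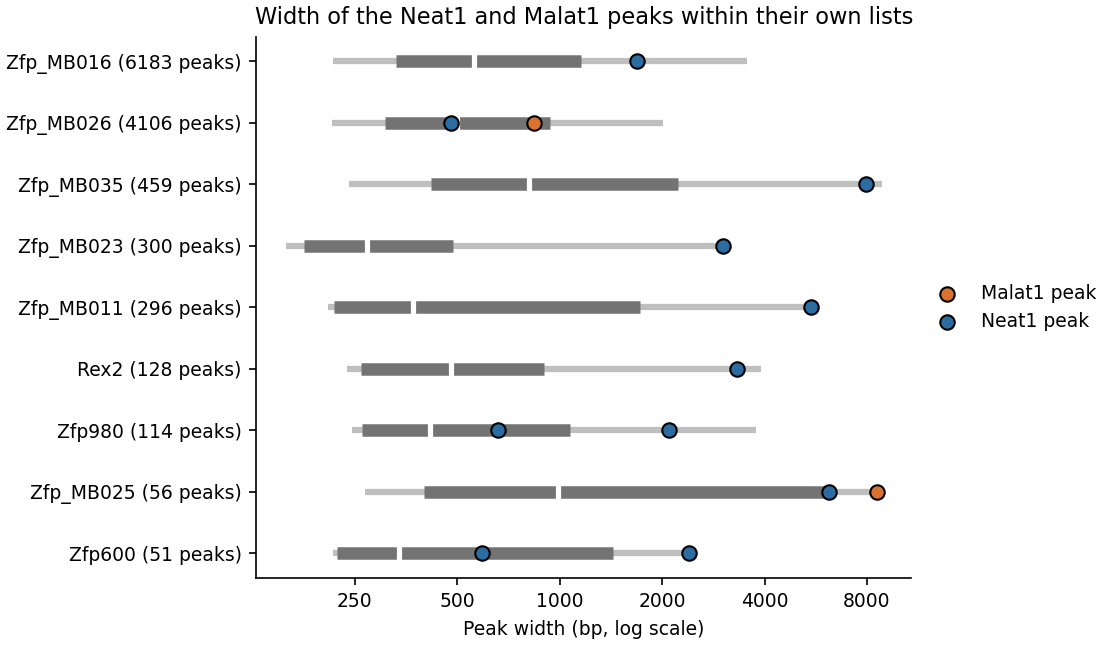
Peak width in bp on a log scale (x axis) for the 9 KZFP lists with a peak at Neat1 or Malat1 (y axis, with the number of peaks in the list). Light bars span the narrowest to the widest peak, dark bars the 5th to the 95th percentile, white ticks mark the median, and points are the Neat1 and Malat1 peaks, 4 of which sit at the right end of their bar as the widest of the list.

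By fold enrichment the same peaks were spread over the whole list. The Rex2 peak was rank 2 of 128 by width and rank 126 by fold. The peak of Zfp_MB023 was rank 1 of 300 by width and rank 227 by fold, and that of Zfp_MB016 was rank 45 of 6183 by width and rank 4337 by fold. The wider Zfp600 peak, rank 4 of 51 by fold, and the Zfp_MB011 peak, rank 23 of 296, were near the top by both. The width percentile was above the fold percentile for 13 of the 13 peaks, with medians of 99.2 and 57.1. A fold enrichment is read at 1 summit base and a width counts how far signal stays above background, so the measures need not go together.

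**Figure D3:**
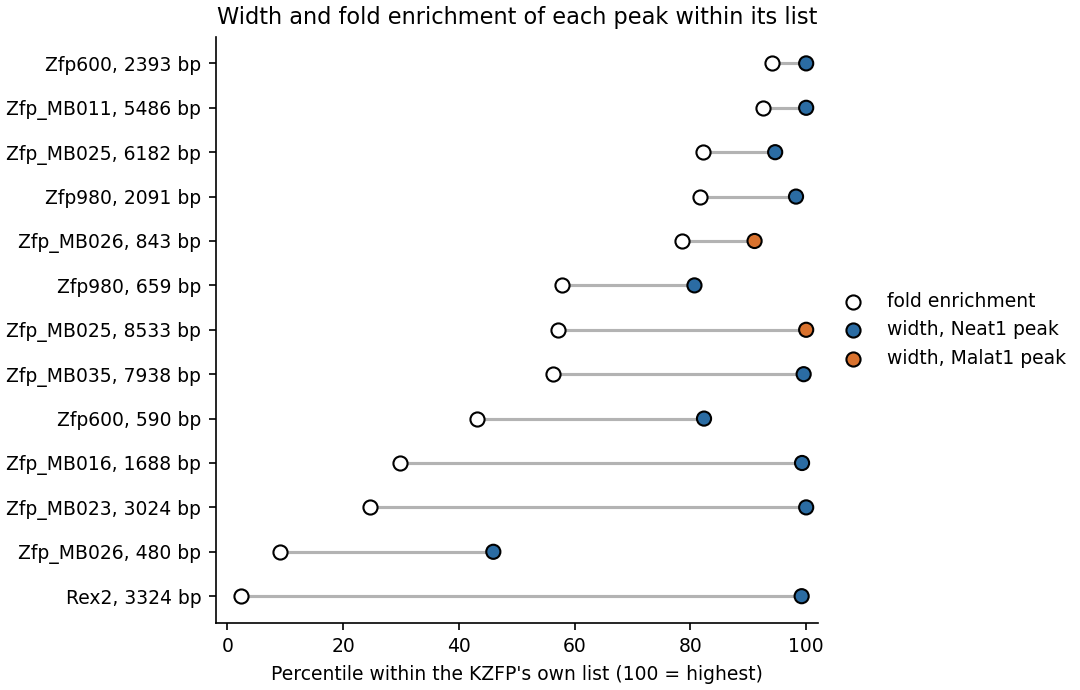
Percentile within the KZFP's own list (x axis, 100 is the highest) of the fold enrichment (open points) and the width (filled points, blue for Neat1 and orange for Malat1) of each of the 13 peaks (y axis, KZFP and width). The filled point lies to the right of the open point in all 13 peaks.

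Malat1 was reached by Zfp_MB025 and Zfp_MB026, and their peaks were unlike each other. Zfp_MB025 had 1 peak of 8533 bp, chr19:5844237-5852769, that covered 89.4% of the gene. It was the widest of the 56 peaks in its list and the third widest of all 25012. Its upstream edge lay 63 bp past the start cluster, and it ran beyond the 3′ end of the gene. The fold enrichment was 12.9, rank 25 of 56, and the −log10 q was 40.3. Its summit, at position 5845506, lay 211 bp past the annotated 3′ end, so the highest signal was at the end of the gene opposite the promoter. At Neat1 the summit of the same KZFP lay 1893 bp from the annotated 5′ end, close to the start cluster. The peak of Zfp_MB026, chr19:5850557-5851399, was 843 bp wide and had its summit inside the gene, 2812 bp from the 5′ end and in an exon of 3 transcripts. Its fold enrichment of 30.6 ranked 885 among the 4106 peaks of its list, and its −log10 q was 152.4.

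The summits nearest to the limit of 2000 bp were those at the 3′ side of Malat1. Inside it, the summit of the wide Zfp_MB025 peak lay 211 bp from the gene and all others lay within a gene. Outside it, the nearest was a second peak of Zfp_MB026, chr19:5843006-5843413, with its summit 2485 bp from the gene, a width of 408 bp and a fold enrichment of 16.4.

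**Figure D4:**
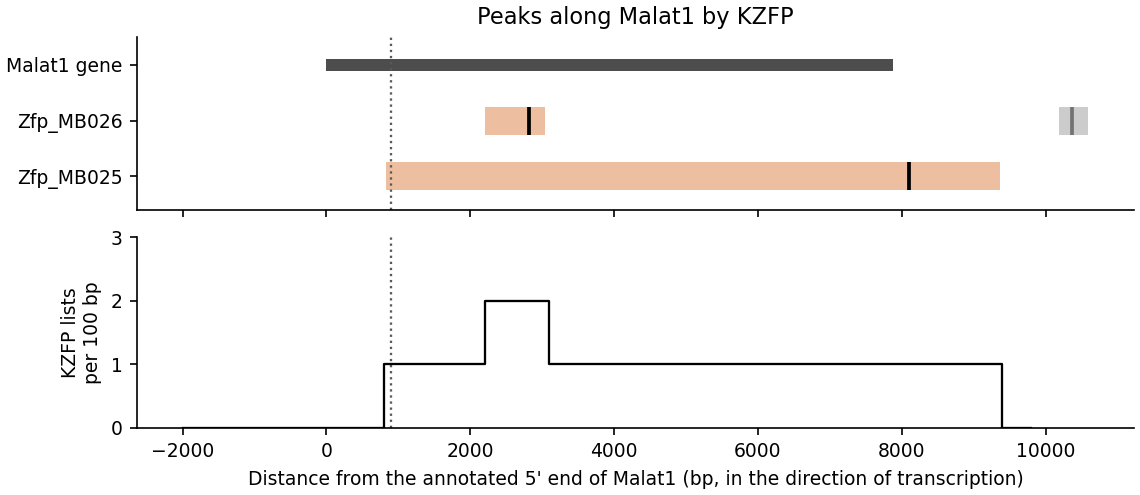
Peaks of Zfp_MB025 and Zfp_MB026 along Malat1 (x axis, bp from the annotated 5′ end in the direction of transcription; y axis, KZFP), drawn as for Neat1, with the start cluster 896 bp from the annotated end. The grey bar is the Zfp_MB026 peak whose summit lay 2485 bp beyond the gene, and the lower panel counts the lists with a peak in each 100 bp.

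Few other summits lay in the neighbourhood. Of the 26 other annotated genes within 50000 bp of Neat1 or Malat1, 11 had a summit inside or within 2000 bp. For 7 of them these were the Neat1 and Malat1 peaks already described. Those 7 were Frmd8os, Gm55523, Gm55524 and Gm55525 at Neat1 and Gm55521, Gm59785 and Gm37376 at Malat1. The protein-coding Ltbp3, with a peak of Zfp_MB016, was among the others. Frmd8, the protein-coding gene upstream of Neat1, had none.

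The sequence under the summits was single in the genome by the measures used here. None of the 13 windows of 200 bp at the summits held a run of 32 bases that occurs again in GRCm39. Of the 11659 other windows of the 9 lists, 6560, or 56.3%, held at least 1 such run, from 39.6% for Zfp_MB025 to 69.4% for Zfp980. In the lists of Zfp_MB025 and Zfp_MB026, with 4 of the 13 peaks, under 50% did, at 39.6% and 43.8%, and 6169 of the pooled windows were from Zfp_MB016. In 47.1% of all 11659 windows over 50% of the runs were repeated. A search with blastn also found no second place in the genome for any of the 13 windows, at 80% identity over at least 100 bp. The authors kept 1 of several equally good alignments at random, and an error-free read that lay in these windows left no such choice. The parts of the peaks outside these windows, most of each wide peak, were not searched for repeats.

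The GC content of the Neat1 windows ran from 41.5% to 59.0% with a median of 55.5%. The windows of the narrower Zfp600 and Zfp980 peaks and of Zfp_MB026 were below 50%, and the other 8 were above it. Against its own list, 6 of the 11 were above the median and 5 below. The Malat1 windows held 51.0% for Zfp_MB025, whose list had a median of 67%, and 45.5% for Zfp_MB026, whose list had a median of 50.0%.

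Motifs came from the study, which ran MEME on these same peaks and RCADE, which also uses the zinc finger sequence. A motif was at hand for 7 of the 9 KZFPs, and both strands of their 9 peaks were searched for the consensus letters with no mismatch. The motif lay in the summit window of 1 peak and anywhere within 2 peaks, all of Zfp_MB026. Its RCADE motif TGGCAA lay at chr19:5850788-5850793 in Malat1, on the minus strand, and included the summit base at 5850790. In the list of Zfp_MB026, 56.8% of 4105 windows held these letters, against 11.5% of 20870 windows of the other 41 lists, and the summit fell on them in 5.41% against 0.115%. In the Neat1 peak of Zfp_MB026 the same letters lay 270 bp from the summit, near the edge of the peak. The RCADE motifs of Rex2, Zfp_MB023 and Zfp_MB035 matched no window in their whole lists, of 128, 300 and 456 windows. Their absence from the Neat1 peaks therefore says nothing particular to Neat1.

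None of the Neat1 peaks of the 7 KZFPs with a motif held the MEME motif of its KZFP. The share of windows with that motif in the whole list was 44.5% for Rex2, 39.2% for Zfp_MB016, 23.9% for Zfp_MB026, 17.8% for Zfp_MB035, 15.9% for Zfp980, 15.7% for Zfp_MB023 and 8.84% for Zfp_MB011. A consensus searched without mismatches misses weaker sites, and letters that were not found say nothing of the protein.

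The genes with the most similar sets of KZFPs were ranked by the Jaccard index, the number of lists shared by 2 genes divided by the number of lists at either. Nearest to Neat1 was Polrmt, the gene of the mitochondrial RNA polymerase, with an index of 0.571. It had peaks in 13 lists, among them 8 of the 9 with a Neat1 peak. Chac1, a glutathione-degrading enzyme gene of the unfolded protein response, followed with 0.556 and 5 lists, all shared. Erdr1x, Selenot, a gene of an endoplasmic reticulum selenoprotein, and Gm56813 had 0.545 each with 6 of 8 lists shared. Gm56813 and Selenot were reached by the same peaks, and Erdr1x has the similar annotation Erdr1y on chromosome Y, so its reads may be split between them.

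The Neat1 peaks were wider than those of the same lists at most of these genes. At Polrmt the widest peak of each list ran from 272 to 1567 bp, and the Neat1 peak was wider in 8 of the 8 lists. It was wider in 6 of 6 at Erdr1x and in 6 of 6 at Selenot. Chac1 differed. Its peaks were wider than those at Neat1 in 2 of 5 lists, at 3899 bp against 3324 bp for Rex2 and 6810 bp against 6182 bp for Zfp_MB025.

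**Figure D5:**
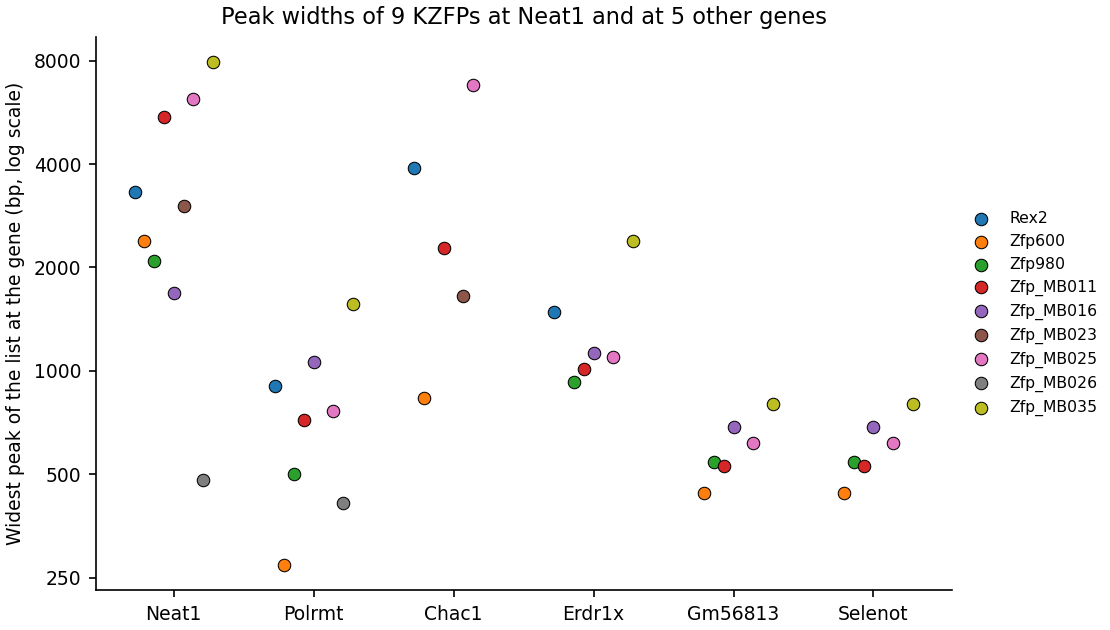
Width of the widest peak (y axis, bp, log scale) of each of the 9 KZFP lists at Neat1 and at the 5 genes with the most similar sets of lists (x axis). Each point is 1 list, a list without a peak at a gene has no point, and at Chac1 the points of Rex2 and Zfp_MB025 lie above their Neat1 points.

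For Malat1 the index rests on 2 lists. Hspa5, which encodes the endoplasmic reticulum chaperone BiP, its neighbour Rabepk and Gm57458 had an index of 1 and were reached by the same 2 peaks, of 788 and 800 bp. The noncoding Gm57135 followed with 0.667 and Gm57144 with 0.500, again through the same 2 peaks, of 822 and 2762 bp. The peaks at these genes were narrower than the 8533 bp of Zfp_MB025 at Malat1.

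Genes of proteins that work with these RNAs had peaks in at least 1 list at a share not far above that of all protein-coding genes. Of 10 paraspeckle protein genes, 4 had a summit inside or within 2000 bp in at least 1 list, and of 14 nuclear speckle protein genes 6 had one, or 42.9%. Over all 21757 protein-coding genes 35.5% had one. In at least 2 lists there were 2 of the 10 and 3 of the 14, a higher share than the 12.5% of all. These gene lists are short, and the difference was not tested. Pspc1, which encodes a core paraspeckle protein, had peaks of Zfp982, Zfp_MB005 and Zfp_MB036, none of which had a Neat1 peak. Ewsr1, an RNA-binding protein gene, had peaks of Zfp_MB014 and Zfp_MB016. Among the speckle genes, the splicing factor genes Srsf7, Srrm2 and Sf3b1 had 2 lists each, of which 1 was a list with a Neat1 peak in each case. The widest peak at any of these 5 genes was 1409 bp, at Pspc1. Nono, which encodes another core paraspeckle protein, had no summit.

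Of 21 other noncoding RNA genes, 9 had a summit in at least 1 list and 2 had one in at least 2 lists. The annotation types Mir290a as a microRNA and Tug1 as protein-coding. Of the 19 typed as long noncoding RNA genes, 8, or 42.1%, had a summit in at least 1 list and 1 in at least 2, against 18.1% and 4.97% of all long noncoding RNA genes. Most of these 8 were reached by Zfp982 alone, whose list of 4746 peaks had no peak at Neat1. The 19 genes were picked by name and not matched to the others in length. Mir290a, the first microRNA of a cluster active in early embryonic cells, had peaks in 6 lists, of which Zfp600, Zfp_MB011 and Zfp_MB025 also had Neat1 peaks. Its widest peak was 5903 bp. Dancr had peaks of Zfp_MB003 and Zfp_MB011. Xist and H19 had none. Of 7 genes of abundant small RNAs, 2 had a summit, or 28.6%, against 19.1% of all genes. Rn7sk, whose RNA holds back the elongation factor P-TEFb, had peaks in 4 lists, of which only that of Zfp_MB016 had a Neat1 peak.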

How the data were processed

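Read pairs were mapped by the authors to GRCm39 with BWA, with 1 of several equally good alignments kept at random. Duplicate and non-primary reads were dropped with SAMtools 1.19, and MACS2 2.2.7.1 called peaks per library against the mixed input of its batch. They removed peaks overlapping a peak of any empty vector control and filtered on q and on a fold of 10, or 5 where few peaks remained. The deposited lists give, per peak, the fold ratio over input, −log10 p and q values and a display score. The score and p were not used.

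The lists of 42 KZFPs (25012 peaks, 37 of them on scaffolds) were joined to GENCODE vM39 in Python 3.11.15 with pandas 2.3.3 and pysam 0.24.0. No peak ran past a chromosome end. Positions are 1-based. A peak belonged to a gene when its summit lay inside it or within 2000 bp. Windows of 200 bp at the summits were searched with blastn 2.17.0 (80% identity, 100 bp) and for runs of 32 bases repeated anywhere in the genome on either strand. The run search and the peak assignment were tested on simulated data. A symbol with 2 annotation entries was counted once. No repeat annotation was used and the genome sequence was not masked, so the planned masked share was replaced by the repeated runs.

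Genes named are Neat1 and Malat1, genes within 50000 bp of either with a summit, up to 5 members of each gene list with a summit in at least 2 lists, and the 5 genes most like each by Jaccard index, ties going to more shared lists and then to the symbol. Some neighbouring genes with a summit are not reported here. Nono, Xist, H19 and Frmd8 were added after their values were seen. The members, gene lists and settings were chosen with earlier results of these data known. Of 54 samples in the labels, 12 were not analysed here: 4 empty vector controls, 5 mixed inputs and 3 embryonic stem cell libraries. No test was run: each KZFP has 1 library, and the rule used the peaks themselves.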

Additional observations from a re-analysis of the deposited data

How the results depend on the processing

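Of 41 alternative values, 33 stayed within 1.5 times the reported count, across wider and narrower gene limits, any overlap in place of the summit, a fold of 10 or a −log10 q of 10 in every list, each batch left out and other ways of joining peaks. A fold of at least 15 in every list left 3 peaks in 3 lists, 2 with Neat1 and 1 with Malat1: Zfp_MB026 at Malat1 and Zfp_MB035 and Zfp_MB025 at Neat1. Without batch 4, 2 lists had a peak, both at Neat1 and 0 at Malat1. With the summit required to lie inside the gene, 1 list had a Malat1 peak, that of Zfp_MB026. Peaks of at least 2 lists formed 2 regions, 1 at each gene. With summits joined within 200 bp there were also 2, both at Neat1, and none was left at Malat1. Joining by reciprocal overlap likewise gave 2 at Neat1 and none at Malat1, so the count hides a change in the regions. No paired analysis was possible because each KZFP has 1 library. With 1 library per KZFP, no spread between replicates stands behind any width, fold or summit. Depth is not in the files, and a stretch without a peak in a list may lie under its thresholds or overlap a control peak, which was not analysed here. No tests of chance were run on the closeness of summits or edges.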
